A study of Homo sapiens with 9 samples.

Results

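The 45 genes described here encode 25 integrin chains, 17 alpha and 8 beta, and 20 cytoplasmic proteins of focal adhesions. They were found by gene symbol among the 27111 genes of the deposited RNA-seq tables, and all 45 were present. Integrins are receptors for the extracellular matrix that work as pairs of an alpha and a beta chain, and the pair decides which ligand is bound. Inside the cell, talins and kindlins activate the beta chain, and vinculin, alpha-actinins, tensins and zyxin tie it to actin. Paxillin, p130Cas (BCAR1), focal adhesion kinase (PTK2), SRC and the complex of ILK with PINCH (LIMS) and parvin proteins pass on its signals.

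The libraries came from PC-3 cells, a human prostate cancer line from a bone metastasis, infected with lentiviral pSIN particles and selected with puromycin. Empty cells carried the vector alone, NF-YAl cells carried the long isoform of murine NF-YA and NF-YAs cells the short isoform. NF-YA is the DNA-binding subunit of NF-Y, a trimeric transcription factor that recognises the CCAAT box, and the short isoform lacks residues of the transactivation domain. All lines were grown as multicellular tumor spheroids (MTSs) with Matrigel, a basement membrane extract rich in laminin and collagen IV, and several MTSs were pooled for each library. Each line is a selected transduced population that kept its endogenous NF-YA. Each isoform was carried by a single line, so isoform and line cannot be told apart. The libraries of a line do not replicate the transduction. There were 3 libraries per line, lettered A, B and C for Empty and NF-YAs and A, B and D for NF-YAl, which the methods give as independent experiments.

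NFYA, whose counts may include reads of the murine transgenes, was at 89.2, 96.7 and 89.4 CPM (counts scaled to library size by TMM) in Empty, at 287, 383 and 353 in NF-YAl, with 264, 263 and 254 in NF-YAs. Total expected counts ran from 18076979 to 27163976 per library. Markers of cell types are given by TPM, which in NF-YAl D stood at 1.61 times the common scale of scaled counts. The upper ends of the NF-YAl ranges may carry that scale. With this limit, EPCAM and KRT8 did not overlap between Empty and either NF-YA line. EPCAM ran from 0.61 to 0.9 TPM in Empty, with 2.27 to 6.68 in NF-YAl and 1.73 to 2.49 in NF-YAs. The epithelial keratin KRT8 was at 161 to 223 TPM, 70.4 to 128 and 119.7 to 130 in the same order, KRT18 at 265 to 339, 212 to 423 and 218 to 262, and VIM at 458 to 600.5, 554 to 957 and 845 to 910. The luminal marker KLK3 was at 0. The part of these markers in the members' differences was not tested. Of the markers of leukocytes and platelets, PF4 and GP9 were at 0, and CD3E reached at most 0.06 TPM, PTPRC 0.54 and CD14 0.93. CD68, which many cell types express, was at 35.6 to 42.0 TPM in Empty, 14.8 to 41.5 in NF-YAl and 22.2 to 26.03 in NF-YAs. The 4 fibroblast markers summed to 0.17 to 0.23 TPM in Empty, 0.22 to 0.62 in NF-YAl and 0.3 to 0.54 in NF-YAs, and the 3 endothelial markers to 2.36 to 2.84 TPM in Empty, 1.40 to 2.89 in NF-YAl and 1.46 to 1.59 in NF-YAs. These are bulk measurements, in which fewer cells of a kind and less RNA per cell cannot be told apart.

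Integrin transcripts of both NF-YA lines had more ITGB3 and ITGAV, which together form the vitronectin receptor, and less ITGA2, ITGA6 and ITGB4, of which the latter 2 form the laminin receptor of hemidesmosomes. ITGA5, TNS1 and TNS3 were lower in NF-YAl than in NF-YAs, and ITGB8 was higher. ILK, SRC and BCAR1 fell in NF-YAl but did not differ between the NF-YA lines past the threshold (adjusted p = 0.0267, 0.048 and 0.0377 in edgeR). Of the 45 genes, 41 passed the filter on low counts. ITGA8, ITGA9, ITGA11 and ITGB6 did not, with at most 15.1, 12, 4 and 8 expected counts in a library. In what follows a gene rose or fell when its adjusted p was under 0.01 by edgeR (quasi-likelihood F test, Benjamini-Hochberg over all 17108 genes tested), and it was a DEG when its |log2FC| was also above 1. Errors of log2FC are standard errors. Both lines were compared with the same 3 Empty libraries.

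In NF-YAl, 11 of the 41 tested members rose (26.8%, against 10.02% of all genes tested) and 11 fell (26.8%, against 9.54%). Of these, 6 that rose were DEGs (14.6%, against 4.76%), as was 1 that fell (2.44%, against 3.50%). In NF-YAs, 13 rose (31.7%, against 12.1%) and 5 fell (12.2%, against 10.5%), and the DEGs were 6 higher (14.6%, against 5.44%) and 1 lower (2.44%, against 3.90%). ITGA4 and ITGAM, among the DEGs that rose in each line, had at most 6 and 8 expected counts in an Empty library. They passed the filter on low counts through the NF-YA libraries alone, so against Empty they could enter only as genes that rise. With at least 10 counts required in every library, 4 DEGs rose in NF-YAl. Between the lines, ITGB8 was the 1 member higher in NF-YAl (2.44%, against 4.70% of all genes, and as a DEG against 1.74%). There, 5 members were lower in NF-YAl (12.2%, against 6.25%), of which TNS1 was a DEG (2.44%, against 2.86%). The median log2FC of the members was -0.26 in NF-YAl and -0.01 in NF-YAs, beside 0.011 and -0.003 over all genes tested. 10 members rose in both lines, 4 fell in both, 1 (TNS1) moved in opposite directions and 16 passed the test in no comparison. The share of all genes tested was not taken for these joint counts, and both lines share their Empty libraries. The joint counts are therefore not read as a result about the members.

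**Figure D1:**
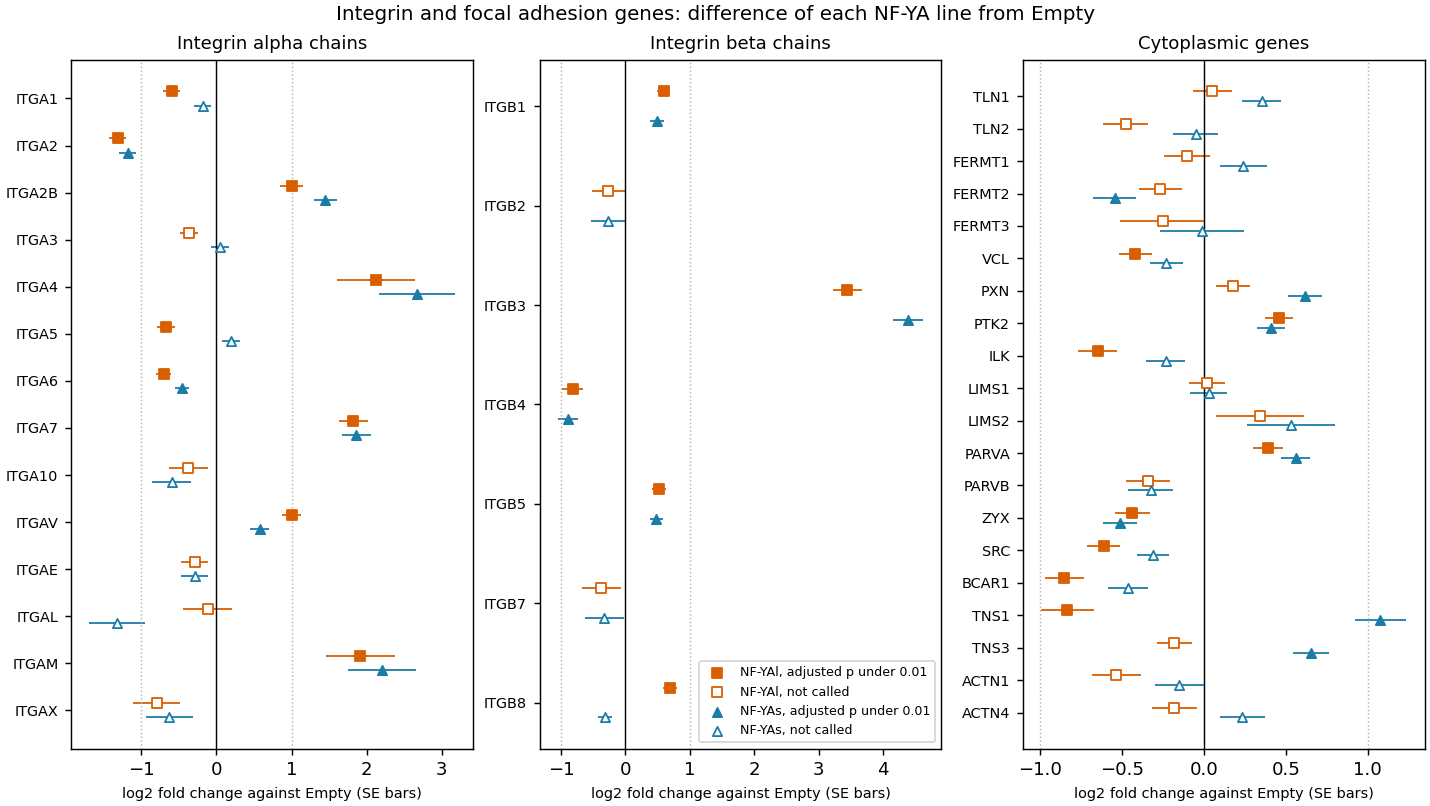
The log2 fold change of each of the 41 tested members against Empty, with SE, for NF-YAl (squares) and NF-YAs (triangles), where filled symbols passed an adjusted p of 0.01 and dotted lines mark a |log2FC| of 1. ITGB3 lies farthest to the right in both lines at 3.45 and 4.39, ITGA2 is left of -1 in both, and TNS1 is on opposite sides.

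The alpha chains were led per length by ITGA3 (mean 283 TPM over the 9 libraries), ITGA6 (133), ITGA1 (42.9) and ITGA5 (32.0). TPM were high for most genes in NF-YAl D, where they stood at 1.61 times the common scale of scaled counts, beside 0.82 to 1.12 in the other libraries, so single genes are compared between lines by CPM, and TPM are used for shares within a library. ITGA3, which pairs with ITGB1 to bind laminin, was at 1141, 1237 and 1144 CPM in Empty, 753, 1014 and 970 in NF-YAl, with 1152, 1221 and 1261 in NF-YAs. It did not pass the test in NF-YAl (log2FC -0.36 ± 0.12, adjusted p = 0.0364 in edgeR) or in NF-YAs (0.05 ± 0.12, adjusted p = 0.799), although all NF-YAl libraries were below all Empty ones.

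ITGA6, the laminin-binding partner of ITGB1 and ITGB4, was at 725, 824 and 765 CPM in Empty, 442, 486 and 493 in NF-YAl, with 590, 529 and 561 in NF-YAs. The 3 lines did not overlap, with Empty highest and NF-YAl lowest. It fell in NF-YAl (log2FC -0.70 ± 0.10, edgeR adjusted p = 0.000198) and in NF-YAs (-0.46 ± 0.10, adjusted p = 0.00288), and NF-YAl against NF-YAs was not past the threshold (-0.24 ± 0.10, adjusted p = 0.091).

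ITGA2, a collagen-binding chain, was at 237, 253 and 288 CPM in Empty, 112, 94.5 and 106 in NF-YAl, with 119, 101 and 123 in NF-YAs. Every library of the NF-YA lines was below every Empty library, and the 2 NF-YA lines overlapped. ITGA2 was lower by 2.49-fold in NF-YAl (log2FC -1.32 ± 0.11, edgeR adjusted p = 7.39e-06) and by 2.27-fold in NF-YAs (-1.18 ± 0.11, adjusted p = 1.22e-05). ITGA1, the neighbouring gene on chromosome 5 and the other main collagen-binding chain, was at 168, 207 and 196 CPM in Empty, 128, 136 and 113 in NF-YAl, with 174, 150 and 179 in NF-YAs. It fell in NF-YAl (-0.60 ± 0.11, adjusted p = 0.00167), while NF-YAs overlapped Empty (-0.18 ± 0.11, adjusted p = 0.23). ITGA1 overlaps PELO on the same strand, and reads in the overlap may belong to either.

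ITGA5, the fibronectin receptor chain, was at 99.0, 120 and 126 CPM in Empty, 80.0, 71.1 and 64.7 in NF-YAl, with 129, 119 and 147 in NF-YAs. The NF-YAl libraries lay below all others. It fell in NF-YAl (log2FC -0.68 ± 0.12, edgeR adjusted p = 0.00125), was not past the threshold in NF-YAs (0.20 ± 0.12, adjusted p = 0.231) and was lower in NF-YAl than in NF-YAs (-0.87 ± 0.12, adjusted p = 0.000507).

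Among alpha chains that rose, ITGAV, which pairs with several beta chains, was at 39.0, 43.4 and 38.1 CPM in Empty, 95.9, 67.6 and 78.0 in NF-YAl, with 63.9, 56.5 and 59.2 in NF-YAs. The 3 lines did not overlap. Its log2FC was 1.002 ± 0.12 in NF-YAl (edgeR adjusted p = 9.45e-05) and 0.58 ± 0.12 in NF-YAs (adjusted p = 0.00353), and the difference between the NF-YA lines was not past the threshold (0.43 ± 0.12, adjusted p = 0.0274). ITGA7, a laminin-binding chain known from muscle, rose from 7.34, 6.40 and 6.89 CPM in Empty to 29.9, 26.8 and 16.4 in NF-YAl, with 24.6, 24.2 and 26.2 in NF-YAs. This is a change of 3.53-fold (log2FC 1.82 ± 0.19, adjusted p = 2.92e-05) and 3.64-fold (1.86 ± 0.19, adjusted p = 2.09e-05). ITGA7 overlaps METTL7B and BLOC1S1 on the other strand.

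Of the chains best known from blood cells, ITGA2B, ITGA4 and ITGAM rose from low levels. ITGAE, ITGAL, ITGAX, ITGB2 and ITGB7 had a negative log2FC in both lines and passed the test in no comparison. ITGA2B, the platelet partner of ITGB3, was at 4.28, 4.41 and 3.54 CPM in Empty, 8.22, 7.89 and 8.42 in NF-YAl, with 10.7, 10.4 and 12.4 in NF-YAs, with no overlap between the 3 lines. Its log2FC was 1.004 ± 0.15 in NF-YAl (edgeR adjusted p = 0.000358) and 1.45 ± 0.15 in NF-YAs (adjusted p = 2.15e-05). The platelet markers PF4 and GP9 were at 0 in all libraries.

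ITGA4, which binds VCAM1 and fibronectin, rested on 3, 6 and 1 expected counts in Empty, 10.6, 12.8 and 16.7 in NF-YAl, with 21.5, 18.4 and 12.9 in NF-YAs. ITGAM, the myeloid partner of ITGB2, rested on 4, 8 and 4 in Empty, 9, 30 and 18 in NF-YAl, with 20, 16 and 25 in NF-YAs. For both genes all NF-YA libraries were above all Empty ones on the CPM scale, at levels of at most 1.23 CPM. Both passed the filter through the NF-YA libraries alone, so this separation gives no support of its own. The log2FC of ITGA4 was 2.13 ± 0.52 in NF-YAl (edgeR adjusted p = 0.00825) and 2.67 ± 0.50 in NF-YAs (adjusted p = 0.00146), and that of ITGAM 1.92 ± 0.46 (adjusted p = 0.00687) and 2.20 ± 0.45 (adjusted p = 0.0025). ITGA10, ITGAE, ITGAL and ITGAX passed the test in no comparison, with mean levels of 10.7, 1.97, 0.146 and 0.397 TPM.

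With 1 library left out and fewer degrees of freedom, several of these adjusted p rose above 0.01. ITGA4 in NF-YAl was lost in 8 of 9 such fits, all but that without Empty B (adjusted p up to 0.039). Its log2FC was 2.81 in NF-YAl and 3.36 in NF-YAs without Empty B. The NF-YAl call was also lost with only the 2 groups fitted (0.0154), with a replicate block by letter (0.0293) and with an effective length offset (0.0194, log2FC 1.56). ITGAM in NF-YAl was lost in 7, all but those without NF-YAl A or D (up to 0.0376), with only the 2 groups fitted (0.0175) and with the block (0.0139). In NF-YAs, ITGAM and ITGAV were each lost without Empty A or C or without NF-YAs A or C (adjusted p up to 0.0162 and 0.0215), and ITGA6 without Empty B or C or NF-YAs B or C (up to 0.0223). ITGA1 in NF-YAl was lost without Empty B or C (up to 0.0107). The log2FC of ITGA2B and ITGAV in NF-YAl lay at the limit of 1 and was under it without Empty C (0.91 and 0.96), ITGA2B also without NF-YAl D (0.98) and ITGAV also without Empty A (0.99) or NF-YAl A (0.86).

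**Figure D2:**
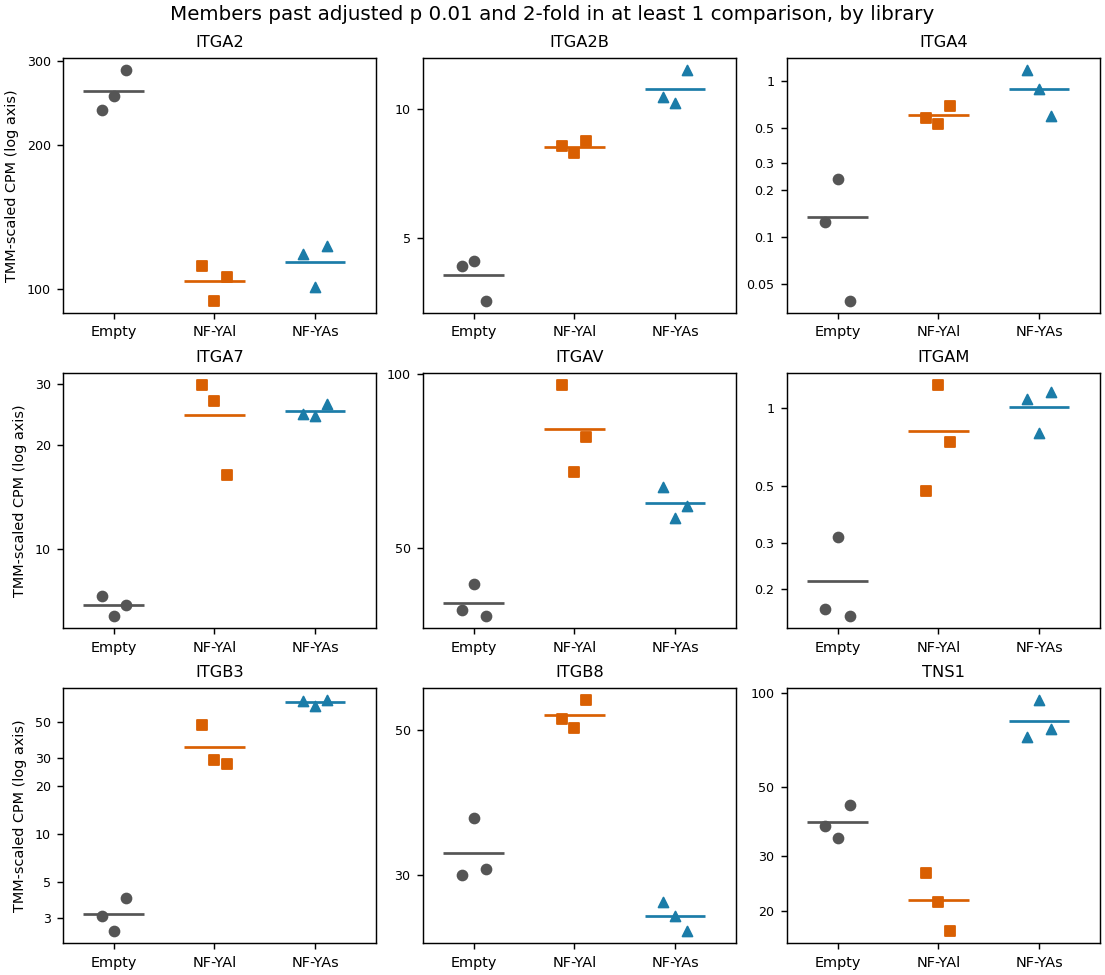
TMM-scaled CPM on a log axis in each of the 3 libraries per line (points) with the mean (line) for the 9 members that were DEGs in at least 1 comparison. The members shown were picked as DEGs from these same libraries, so the gap between Empty and the NF-YA lines gives no support of its own. For TNS1 and ITGB8 Empty lies between the NF-YA lines.

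The beta chains were led per length by ITGB1 (mean 573 TPM), ITGB4 (20.7) and ITGB5 (13.9). ITGB1, the shared partner of most alpha chains, was at 1122, 1369 and 1269 CPM in Empty, 1900, 1789 and 1978 in NF-YAl, with 1781, 1751 and 1754 in NF-YAs. Both NF-YA lines were above Empty without overlap. ITGB1 rose by a log2FC of 0.59 ± 0.11 in NF-YAl (edgeR adjusted p = 0.00122) and 0.49 ± 0.11 in NF-YAs (adjusted p = 0.00349).

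ITGB3, which pairs with ITGAV and ITGA2B, had the largest |log2FC| of the 41 members. It stood at 3.06, 2.46 and 3.98 CPM in Empty, 48.1, 28.8 and 27.5 in NF-YAl, with 67.4, 63.4 and 68.9 in NF-YAs. The 3 lines did not overlap, and NF-YAs was highest. It was 10.9-fold higher in NF-YAl (log2FC 3.45 ± 0.23, edgeR adjusted p = 1.39e-06) and 21.0-fold higher in NF-YAs (4.39 ± 0.24, adjusted p = 3.99e-07), and lower in NF-YAl than in NF-YAs (-0.94 ± 0.20, adjusted p = 0.00514). The 100 tested genes around ITGB3 on chromosome 17 of GRCh37 (50 on each side) had a median log2FC of 0.46 in NF-YAl and 0.73 in NF-YAs. The same medians were 0.32 and 0.55 around ITGA2B and 0.35 and 0.59 around ITGA3 on the same chromosome, and the part of these neighbourhoods in the members' differences was not tested.

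ITGB5 and ITGB8, further partners of ITGAV, differed in their pattern. ITGB5 was at 31.9, 41.0 and 34.2 CPM in Empty, 54.0, 49.4 and 50.5 in NF-YAl, with 51.3, 49.8 and 48.5 in NF-YAs, and rose in both (log2FC 0.52 ± 0.10, edgeR adjusted p = 0.0024, and 0.48 ± 0.10, adjusted p = 0.00347). ITGB8, known for activating latent TGF-beta together with ITGAV, was at 30.1, 36.7 and 30.6 CPM in Empty, 51.9, 50.2 and 55.5 in NF-YAl, with 27.4, 25.98 and 24.7 in NF-YAs. The 3 lines did not overlap, with NF-YAl highest. ITGB8 rose in NF-YAl (0.69 ± 0.10, adjusted p = 0.000346), was lower in NF-YAs without passing the test (-0.32 ± 0.10, adjusted p = 0.0317) and was 2.02-fold higher in NF-YAl than in NF-YAs (1.02 ± 0.10, adjusted p = 6.34e-05).

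ITGB4, the hemidesmosomal partner of ITGA6, was at 129, 131 and 142 CPM in Empty, 61.4, 89.0 and 77.1 in NF-YAl, with 60.5, 90.4 and 65.7 in NF-YAs. All NF-YA libraries lay below Empty. It fell in NF-YAl (log2FC -0.82 ± 0.16, edgeR adjusted p = 0.00198) and in NF-YAs (-0.89 ± 0.16, adjusted p = 0.00101), while the 100 genes around it had medians of 0.12 and 0.34. ITGB4 overlaps GALK1 on the other strand, as ITGA4 does CERKL. ITGB2 and ITGB7, chains of leukocyte integrins, passed the test in no comparison (mean 5.88 and 0.744 TPM).

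Among the beta chains, leaving out 1 library took the adjusted p of ITGB1 and ITGB5 in NF-YAs above 0.01 without Empty A or C or any NF-YAs library (adjusted p up to 0.0178 and 0.0227). With only the 2 groups fitted, the calls of ITGB1 and ITGB5 in NF-YAl were lost too (0.0102 and 0.0118), as was that of ITGB3 between the NF-YA lines (0.0126). The call of ITGB5 in NF-YAl was lost without Empty A or C (up to 0.0174) and that of ITGB4 without Empty C (0.0112). ITGB3 between the NF-YA lines was lost without Empty A, NF-YAl B or any NF-YAs library (up to 0.0249). The log2FC of ITGB8 between the lines was under 1 without NF-YAl D (0.98) or NF-YAs C (0.98).

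The makeup of the integrin transcripts, taken per length as shares of TPM within each library, differed between the lines. Sums of TPM in NF-YAl D run high with its scale, so the sums are given without a comparison of the lines and only the shares are compared. The 17 alpha chains summed to 634, 546 and 507 TPM in Empty, 413, 405 and 723 in NF-YAl, with 625, 550 and 555 in NF-YAs, and the 8 beta chains to 463, 425 and 392, to 693, 561 and 1147 and to 730, 648 and 605. The alpha chains thus took 57.8%, 56.2% and 56.4% of all integrin chain TPM in Empty, 37.3%, 41.9% and 38.7% in NF-YAl, with 46.1%, 45.9% and 47.8% in NF-YAs. The lines were fully separate, and each difference had p = 0.1 in a two-sided exact permutation test, the smallest that 3 libraries against 3 allow. Relative to Empty the alpha share was 17.5 percentage points lower in NF-YAl (39.3% ± 2.38 against 56.8% ± 0.88, SD, n = 3) and 10.2 points lower in NF-YAs (46.6% ± 1.04).

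Within the beta chains, ITGB1 took 88.2%, 89.7% and 88.5% in Empty, 92.3%, 91.4% and 92.5% in NF-YAl, with 91.5%, 90.5% and 91.4% in NF-YAs. ITGB4 went from 6.69%, 5.63% and 6.51% to 1.96%, 2.99% and 2.37% in NF-YAl, with 2.04%, 3.07% and 2.25% in NF-YAs. ITGB3 went from 0.188%, 0.125% and 0.217% to 1.82%, 1.14% and 1.0004% and to 2.69%, 2.54% and 2.79%. In NF-YAs, ITGB3 was therefore at the level of ITGB4, whereas Empty had far more ITGB4. Within the alpha chains, ITGA6 went from 27.2% ± 0.274 (SD, n = 3) in Empty to 23.3% ± 0.769 in NF-YAl and 21.6% ± 1.24 in NF-YAs. ITGA2 went from 6.71% ± 0.656 to 3.78% ± 0.587 and 3.23% ± 0.255, and ITGAV from 1.16% ± 0.053 to 3.29% ± 0.829 and 1.90% ± 0.131. For ITGB1, ITGB3, ITGB4, ITGA6, ITGA2 and ITGAV both NF-YA lines were separate from Empty (exact permutation p = 0.1 each, the smallest possible).

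Among the beta partners of ITGAV other than ITGB1, ITGB3 took 1.32% ± 0.435 (SD, n = 3) of beta chain TPM in NF-YAl and 2.67% ± 0.125 in NF-YAs, and ITGB8 took 1.10% ± 0.0169 and 0.574% ± 0.0244 (exact permutation p = 0.1 for both differences). ITGB5 stayed at 2.06% to 2.34% of the beta chains in all 9 libraries.

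Of the 20 cytoplasmic members, 2 rose (10%, against 10.02% of all genes tested) and 6 fell (30%, against 9.54%) in NF-YAl. In NF-YAs 5 rose (25%, against 12.1%) and 2 fell (10%, against 10.5%). Per length the most abundant were ZYX (mean 485 TPM), ACTN1 (353), VCL (240), PXN (184), ACTN4 (145) and PTK2 (98.9). Among the actin linkers, ZYX, which gathers at stretched actin fibres, was at 1016, 1053 and 1031 CPM in Empty, 801, 820 and 669 in NF-YAl, with 670, 737 and 764 in NF-YAs. Both NF-YA lines were below Empty without overlap (log2FC -0.44 ± 0.11, edgeR adjusted p = 0.00767, and -0.51 ± 0.11, adjusted p = 0.00263).

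VCL (vinculin), which reinforces talin's link to actin, was at 1097, 1215 and 1113 CPM in Empty, 877, 894 and 790 in NF-YAl, with 935, 939 and 1042 in NF-YAs. It fell in NF-YAl (-0.42 ± 0.10, edgeR adjusted p = 0.00737) and was not past the threshold in NF-YAs (-0.23 ± 0.10, adjusted p = 0.0933). The alpha-actinins, which crosslink actin, passed the test in no comparison. ACTN1 was at 1114, 1255 and 1121 CPM in Empty, 597, 893 and 916 in NF-YAl, with 965, 1088 and 1088 in NF-YAs. ACTN4 was at 413, 457 and 418 CPM in Empty, 289, 417 and 429 in NF-YAl, with 464, 520 and 530 in NF-YAs. NF-YAl A was the lowest library for both. On the other strand, ZYX overlaps EPHA1, VCL overlaps AP3M1 and ACTN4 overlaps CAPN12.

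The tensins link integrin tails to actin, and TNS1 had the largest |log2FC| between the NF-YA lines of the 41 members. It was at 37.5, 34.3 and 43.8 CPM in Empty, 26.4, 21.3 and 17.2 in NF-YAl, with 72.1, 95.1 and 76.6 in NF-YAs. The 3 lines did not overlap, with Empty in the middle. TNS1 fell in NF-YAl (log2FC -0.84 ± 0.16, edgeR adjusted p = 0.00193), rose in NF-YAs (1.08 ± 0.16, adjusted p = 0.000255) and was 3.76-fold lower in NF-YAl than in NF-YAs (-1.91 ± 0.16, adjusted p = 2.35e-05). TNS3 was at 242, 272 and 234 CPM in Empty, 209, 247 and 204 in NF-YAl, with 367, 426 and 383 in NF-YAs. NF-YAs lay above both other lines, which overlapped. TNS3 rose in NF-YAs (0.65 ± 0.11, adjusted p = 0.000608), did not pass the test in NF-YAl (-0.18 ± 0.11, adjusted p = 0.226) and was lower in NF-YAl than in NF-YAs (-0.83 ± 0.11, adjusted p = 0.000304).

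Among the scaffolds, PXN (paxillin) was at 453, 412 and 408 CPM in Empty, 429, 538 and 471 in NF-YAl, with 639, 671 and 640 in NF-YAs. NF-YAs was above all other libraries. PXN rose in NF-YAs (log2FC 0.62 ± 0.10, edgeR adjusted p = 0.000672) and did not pass the test in NF-YAl (0.18 ± 0.10, adjusted p = 0.221). Between the NF-YA lines its adjusted p of 0.00997 was just under the limit (-0.44 ± 0.10), and 13 of the other settings tried brought it above. The 100 genes around PXN had a median log2FC of 0.29 in NF-YAl and 0.54 in NF-YAs, and whether they share in its difference was not tested. PXN overlaps PXN-AS1 on the other strand. BCAR1, a docking protein that SRC and PTK2 phosphorylate, fell in NF-YAl (-0.85 ± 0.12, adjusted p = 0.000253), with 118 to 148 CPM beside 216 to 267 in Empty, and its value in NF-YAs was -0.46 ± 0.12 (adjusted p = 0.0103, and under 0.01 by DESeq2). The 100 genes around BCAR1 had medians of -0.49 and -0.45.

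Of the kinases, PTK2 (focal adhesion kinase) was at 267, 276 and 277 CPM in Empty, 366, 400 and 360 in NF-YAl, with 368, 365 and 353 in NF-YAs, and rose in both lines (log2FC 0.46 ± 0.09, edgeR adjusted p = 0.00153, and 0.41 ± 0.09, adjusted p = 0.00291). SRC fell in NF-YAl (-0.61 ± 0.10, adjusted p = 0.000635) and was at -0.31 ± 0.10 in NF-YAs (adjusted p = 0.0287). In the complex around ILK, a pseudokinase, ILK fell in NF-YAl (-0.65 ± 0.12, adjusted p = 0.00141) and was at -0.23 ± 0.12 in NF-YAs (adjusted p = 0.146). Its partner PARVA rose in both (0.39 ± 0.09, adjusted p = 0.0056, and 0.56 ± 0.09, adjusted p = 0.00049), and LIMS1, LIMS2 and PARVB passed the test in no comparison. ILK overlaps TAF10 on the other strand, and LIMS1 has close paralogs with which reads may be shared. Among the activators, FERMT2 (kindlin-2) fell in NF-YAs (-0.55 ± 0.13, adjusted p = 0.00681) and was at -0.27 ± 0.13 in NF-YAl (adjusted p = 0.147). TLN1, TLN2, FERMT1 and FERMT3 passed the test in no comparison.

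Of these calls in NF-YAl, VCL and ZYX were each lost in 8 of 9 fits without 1 library, all but that without NF-YAl A (adjusted p up to 0.0351 and 0.0302), and PARVA in 6, all but those without NF-YAl A, NF-YAl D or NF-YAs A (up to 0.0366). With only the 2 groups fitted, VCL (0.0333), ZYX (0.0325), PARVA (0.0207) and PTK2 (0.011) were lost in NF-YAl, VCL and ZYX with the replicate block too (0.0198 and 0.019) and VCL without the filter (0.0111). TNS1 in NF-YAl was lost without Empty C (0.0123). In NF-YAs, FERMT2 was lost in 6 such fits, all but those without Empty A, NF-YAl A or NF-YAl D (up to 0.04), PTK2 without any 1 Empty or NF-YAs library (up to 0.016) and ZYX without Empty B or C or NF-YAs A or B (up to 0.0192). PXN between the NF-YA lines was lost in 8, all but that without NF-YAl B (up to 0.0488). The log2FC of TNS1 in NF-YAs was under the DEG limit without NF-YAs B (0.95) and, by less than 0.01, without Empty B.

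**Figure D3:**
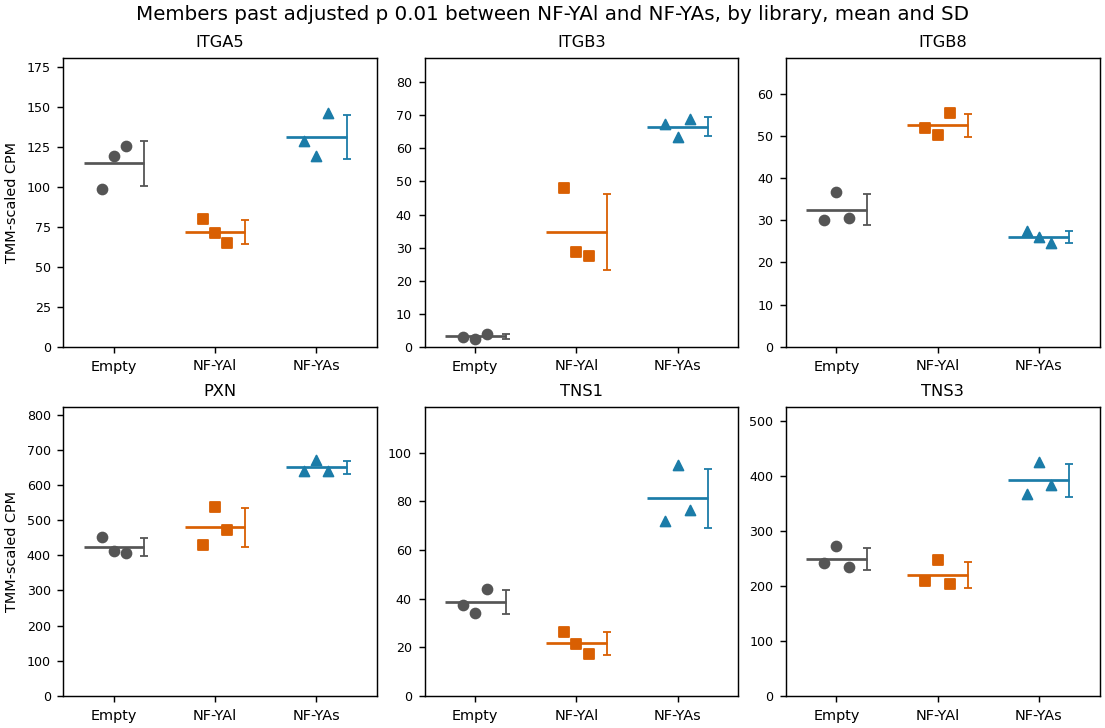
TMM-scaled CPM in each library (points), with the mean (line) and SD (bar), for the 6 members that passed an adjusted p of 0.01 between NF-YAl and NF-YAs. ITGB8 alone is higher in NF-YAl, and TNS1 runs from 17.2 to 26.4 CPM in NF-YAl and from 72.1 to 95.1 in NF-YAs.

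The transcript tables gave the share of each gene's TPM by RSEM, an estimate made from reads that several transcripts share. For 13 members with at least 5 TPM and a transcript at 10% to 90%, 31 transcripts were described. The same rule took in 13838 transcripts of 5500 genes, the members' included. The shares of 11 member transcripts did not overlap between NF-YAl and Empty (35.5%, against 16.9% of all these transcripts), 8 between NF-YAs and Empty (25.8%, against 20.9%) and 7 between the NF-YA lines (22.6%, against 15.98%). Shares within a gene depend on each other, and the exact permutation test cannot go below p = 0.1. For PXN, NM_002859.3 took 54.6%, 57.2% and 56.9% in Empty, 59.4%, 61.6% and 64.8% in NF-YAl, with 66.9%, 68.1% and 71.0% in NF-YAs, so that the 3 lines were separate. NM_001243756.1, which is 144 bases longer, took 26.9%, 27.3% and 26.9% in Empty, 23.8%, 21.2% and 19.8% in NF-YAl, with 18.01%, 14.8% and 16.3% in NF-YAs. NM_001080855.2, which is 102 bases longer, overlapped between all lines (9.97% to 13.4%).

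For ITGA7, NM_001144996.1 took 9.15%, 21.6% and 11.3% in Empty, 46.0%, 38.4% and 78.5% in NF-YAl, with 53.2%, 31.9% and 56.2% in NF-YAs. It rested on 17.1 to 36.99 estimated counts per Empty library and 162 to 331 per NF-YA library, and both NF-YA lines were above Empty (exact permutation p = 0.1 each). NM_001144997.1, the shortest of the 3, took 54.6%, 50.6% and 65.7% in Empty, 39.3%, 40.9% and 9.13% in NF-YAl, with 22.9%, 34.7% and 28.15% in NF-YAs. Both NF-YA lines were below Empty for it, by 27.2 and 28.4 percentage points of the mean share (exact permutation p = 0.1 each). NM_002206.2 is 12 bases shorter than NM_001144996.1 and took 23.0% to 36.3% in Empty, 12.4% to 20.7% in NF-YAl and 15.6% to 33.3% in NF-YAs, where it overlapped Empty. The annotation of GRCh37 holds neighbouring coding exons of ITGA7 whose lengths differ by the same 12 bases. Which exon each deposited transcript holds was read from these lengths alone, and 1 annotated transcript holds both. The lengths do not say which exon NM_001144997.1 holds, so the shares do not show an exchange of these exons. They are shown, on the coding (minus) strand of chr12:56094046-56094177 and chr12:56093654-56093773, because the alternative exons of ITGA7 at this place are known to encode alternative parts of the ligand-binding region.
ITGA7 longer exon: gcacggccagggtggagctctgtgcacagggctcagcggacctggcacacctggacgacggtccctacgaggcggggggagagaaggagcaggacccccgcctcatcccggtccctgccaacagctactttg
ITGA7 shorter exon: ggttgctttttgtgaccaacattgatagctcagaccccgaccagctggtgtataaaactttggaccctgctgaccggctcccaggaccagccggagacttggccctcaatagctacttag

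Since NF-Y binds CCAAT boxes, the members' promoters were read for CCAAT or its complement ATTGG in the window of 250 bases before to 50 after the start (RefSeq, GRCh38.p14). The table held 61 promoters of 33 members. The motif was in 9 of the 61 (14.8%), beside 6012 of 17529 promoters of tested genes (34.3%), and in at least 1 promoter of 9 of the 33 members (27.3%), beside 5157 of 12173 tested genes (42.4%). Of 12 promoters of the DEG members 2 held it (16.7%), those of ITGA2B and ITGB8. A match is a description of letters and not a bound site. PARVA, ITGB4, ITGAL, ITGB2, ITGA9, ITGA3, SRC, ITGAX, ITGB3, PTK2, FERMT1 and ITGA7 had no entry. The stretches around the motif (capitals), on the gene's strand, are shown for 5 members that rose or fell in at least 1 comparison and whose motif lies upstream of the start. For PXN and TNS3 the motif was in only 1 of the gene's promoters, and their other promoters held none. ITGB1, which rose in both lines, held 2 motifs downstream, at 12 and 24 bases after the start, in 1 of its promoters and is not shown. The stretches shown are chr17:44389705-44389769 (ITGA2B), chr7:20330650-20330694 (ITGB8), chr10:73997893-73998079 (VCL, with 2 motifs), chr12:120250164-120250228 (PXN) and chr7:47537505-47537569 (TNS3).
ITGA2B: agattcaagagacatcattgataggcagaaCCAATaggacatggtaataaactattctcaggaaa
ITGB8: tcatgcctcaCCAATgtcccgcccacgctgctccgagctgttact
VCL: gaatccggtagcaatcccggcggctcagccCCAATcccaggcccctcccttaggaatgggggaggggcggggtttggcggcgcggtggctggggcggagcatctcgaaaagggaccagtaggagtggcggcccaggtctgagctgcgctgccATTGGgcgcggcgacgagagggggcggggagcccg
PXN: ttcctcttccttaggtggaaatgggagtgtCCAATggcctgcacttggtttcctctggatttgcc
TNS3: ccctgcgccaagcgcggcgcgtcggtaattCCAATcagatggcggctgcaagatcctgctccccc

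Other genes of the same structures were counted in the same fit, from a list written with earlier results of these data known. Their shares are therefore a description and no independent support. Of 72 further focal adhesion genes, 65 were tested, and 6 rose (9.23%, against 10.02% of all genes tested) and 13 fell (20%, against 9.54%) in NF-YAl. In NF-YAs 12 rose (18.5%, against 12.1%) and 9 fell (13.8%, against 10.5%), and 1 was higher (1.54%, against 4.70%) and 5 lower (7.69%, against 6.25%) in NF-YAl than in NF-YAs. Their median log2FC was -0.07 in NF-YAl and -0.004 in NF-YAs. LPXN (leupaxin), a relative of paxillin, was at 4.53, 5.40 and 4.88 CPM in Empty, 6.15, 6.54 and 6.90 in NF-YAl, with 18.3, 20.9 and 19.2 in NF-YAs (log2FC 1.97 ± 0.13 in NF-YAs, edgeR adjusted p = 1.45e-06). CSRP1 and PDLIM1, LIM proteins of the actin cytoskeleton, fell in NF-YAl (-1.42 ± 0.09, adjusted p = 6.42e-07, and -1.36 ± 0.10, adjusted p = 3.27e-06) and were at -0.24 ± 0.08 (adjusted p = 0.0425) and -0.13 ± 0.10 (adjusted p = 0.366) in NF-YAs. CAV1 (caveolin-1) fell in NF-YAl (-1.38 ± 0.29, adjusted p = 0.00336), with a wide spread of 53.1, 104 and 172 CPM beside 273 to 292 in Empty.

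Of 47 integrin ligands, 41 were tested, and 12 rose (29.3%, against 10.02% of all genes tested) and 7 fell (17.1%, against 9.54%) in NF-YAl. In NF-YAs 20 rose (48.8%, against 12.1%) and 5 fell (12.2%, against 10.5%), and 2 were higher (4.88%, against 4.70%) and 16 lower (39%, against 6.25%) in NF-YAl than in NF-YAs. Their median log2FC was 0.42 in NF-YAl and 0.65 in NF-YAs. The list of ligands was written with earlier results of these data known, so its shares are a description and no independent support. ICAM1, the ligand of leukocyte integrins, went from 9.31, 11.5 and 11.2 CPM in Empty to 92.7, 139 and 154 in NF-YAl, with 93.2, 97.7 and 123 in NF-YAs (log2FC 3.59 ± 0.20, edgeR adjusted p = 3.48e-07, and 3.29 ± 0.19, adjusted p = 4.55e-07). THBS2 (thrombospondin-2) went from 0.336, 0.278 and 0.236 CPM in Empty to 5.87, 2.34 and 9.31 in NF-YAs (4.35 ± 0.50, adjusted p = 4.67e-05). In NF-YAl it was at 0.902, 0.573 and 0.945 CPM (1.49 ± 0.58, adjusted p = 0.0679). THBS2 passed the filter on low counts through the NF-YA libraries alone, so against Empty it could enter only as a gene that rises. VWF, a ligand of ITGA2B with ITGB3, fell in NF-YAl (-3.23 ± 0.23, adjusted p = 1.92e-06) and was at -0.14 ± 0.19 in NF-YAs (adjusted p = 0.604). NPNT (nephronectin) fell in both, by 1.06 ± 0.20 in NF-YAl (adjusted p = 0.00187) and by 3.14 ± 0.24 in NF-YAs (adjusted p = 2.65e-06).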

How the data were processed

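RNA was extracted with the MaxwellRSC system and libraries were made with the Illumina TruSeq Stranded Total RNA kit. The authors aligned reads to human transcripts (hg19, GRCh37) with Bowtie2 within RSEM and deposited, per library, expected counts and TPM for genes and transcripts, and each transcript's percent of its gene's TPM. The expected counts share out reads that align to several transcripts and are not normalized, and whether strand was used in counting is not given in the sources used here. The authors' software scaled the deposited TPM to 1 total per library after dividing by effective length.

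Expected counts were rounded and fitted with edgeR 4.0.16 (TMM, filterByExpr, quasi-likelihood F tests, all 9 libraries together) in R 4.3.3, where the study used DESeq2, after testing on simulated data. SE is |log2FC| over the square root of F. Members and lists were chosen with earlier results of these data known. Values per library are given for DEG members and, by mean TPM, the 4 leading alpha chains, 3 beta chains and 6 cytoplasmic genes, and from the lists for at most 4 DEGs each, those with the largest |log2FC|, a mean of 5 CPM or more in the higher line and separate libraries. Shares were compared by exact permutation test with scipy 1.17.1. Alternatives were DESeq2 1.42.0, RLE scaling, no filter, a minimum of 10 counts per library, separate fits of 2 groups, a replicate block by letter, an effective length offset, a threshold of 0.05 and dropping single libraries. Whether letters pair the libraries is not stated in the sources, so the block by letter was not in the model that gives the values printed. Positions and neighbours came from GENCODE for GRCh37, which placed 15295 of the 17108 tested genes, and promoters from RefSeq. Some marker genes are not reported here.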

Additional observations from a re-analysis of the deposited data

Results flagged for a closer look

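Differences between the NF-YA lines were flagged for 4 members whose values against Empty had opposite signs in the lines. Isoform and line cannot be told apart here, and the share of all genes was not taken for this count. The log2FC of NF-YAl against NF-YAs in edgeR was -0.87 for ITGA5 (adjusted p = 0.000507), 1.02 for ITGB8 (adjusted p = 6.34e-05), -1.91 for TNS1 (adjusted p = 2.35e-05) and -0.83 for TNS3 (adjusted p = 0.000304). Of these, TNS1 passed the test against Empty in both directions, and the other 3 in 1 line only.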

How the results depend on the processing

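No member's log2FC that passed the test changed sign under any alternative. The count that rose in NF-YAl went from 11 to 5 when only the 2 groups compared were fitted, and the DEGs among them from 6 to 2 with the replicate block, where ITGA2B and ITGAV were at 0.98 each. The count that fell in NF-YAs went from 5 to 9 at an adjusted p under 0.05, to 8 with only the 2 groups compared and to 8 with the replicate block, and its DEGs from 1 to 2 at an adjusted p under 0.05. Between the NF-YA lines, an adjusted p under 0.05 gave 3 members higher and 13 lower in NF-YAl and 2 DEGs higher, only the 2 groups compared gave 3 lower, and edgeR with the replicate block gave 0 DEGs higher, with ITGB8 still past the adjusted p but at a log2FC of 0.93. Shares of all genes under the alternatives, the dropping of single libraries included, were not taken. These counts therefore show only how the members' calls depend on the setting. The cause of these shifts was not tested. The letters are not stated to mark a shared batch. Residual correlations of same-letter libraries ran from -0.0652 to 0.2528, and 3 of 7 pairs were over 0.1, among them both pairs of Empty with NF-YAl (0.1229 and 0.2528). Pairs with different letters ran from -0.2202 (Empty A with NF-YAl B) to 0.1633 (NF-YAl D with NF-YAs A). Whether the letters mark pairs was not tested.

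Without 1 library at a time, the members that rose numbered 7 to 10 in NF-YAl and 8 to 14 in NF-YAs, those that fell 6 to 11 and 2 to 7, and between the NF-YA lines 1 was higher and 3 to 4 lower. The DEGs were 2 to 5 higher and 1 lower in NF-YAl, 5 to 6 higher and 1 to 2 lower in NF-YAs, and 0 to 1 higher and 1 to 2 lower between the lines. Counts moved by over 1.5 times without Empty A or C (7 rose in NF-YAl, with 3 and 2 DEGs), without Empty C (6 fell in NF-YAl), without Empty A or C or NF-YAs A or C (8 rose in NF-YAs), and without Empty B or C or NF-YAs B (2 fell in NF-YAs) or NF-YAs A or C (3 fell). DEGs that fell in NF-YAs numbered 2 without NF-YAs B. Between the lines, 3 were lower without Empty A or any NF-YAs library, 2 DEGs were lower without NF-YAl A, and 0 were higher without NF-YAl D or NF-YAs C, where ITGB8 was at 0.98. The alpha share differed by -18.8 to -16.5 points in NF-YAl, -10.8 to -9.67 in NF-YAs and -8.62 to -6.3 between the lines. Low counts limit ITGA4 and ITGAM.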
